A study of Mus musculus with 8 samples.

Results

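The regions described here are the stretches of accessible chromatin in the mouse immunoglobulin kappa light chain locus, on chromosome 6 from 67555636 to 70726754 of the GRCm38 build, a span of 3.17 Mb. A region of the authors' deposited edgeR tables belonged to the set when its centre lay in that span, and repeated entries were counted once. By this rule 213 of 54239 regions were members in the line EBF1-dTAG_C and 243 of 55193 in the line EBF1-dTAG_N, 456 of 109432 in all. Of these, 197 pairs overlapped between the lines by at least 1 bp, 16 regions were listed in EBF1-dTAG_C alone and 46 in EBF1-dTAG_N alone, which makes 259 distinct stretches of DNA.

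The study measured open chromatin with ATAC-seq, in which the Tn5 transposase cuts and tags accessible DNA, in pro-B cells. These had been transformed with A-MuLV, the Abelson murine leukaemia virus. In both lines the endogenous transcription factor EBF1 had been replaced by a modified version carrying a degradation tag (dTAG), and the lines were named EBF1-dTAG_C and EBF1-dTAG_N. Cells of each line received dTAG-13, the small molecule that sends a dTAG fusion protein to the proteasome, at 0.5 uM for 6 h, or the solvent DMSO for the same time, with 2 biological replicates in each of the 4 groups and 8 libraries in all. The DMSO libraries also bear a 0 h name in the labels, the DMSO cells carried the same tagged EBF1 as the dTAG-13 cells, and the level of EBF1 protein was not measured in the data used here. Each line is a transformed culture, so replicates are cultures of 1 line and the p-values speak for these lines only.

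The kappa locus holds a long array of variable (V) segments in both orientations, a short cluster of joining (J) segments and a single constant (C) segment, Igkc. Recombination joins a V segment to a J segment at the pre-B cell stage, after the heavy chain has been rearranged, and the array becomes accessible around that step. The intronic enhancer lies between the J segments and Igkc, the 3′ enhancer lies beyond Igkc, and the interval between the V array and the J segments holds the CTCF-bound elements Cer and Sis. EBF1 is a pioneer factor that specifies the B lineage and opens chromatin at many B cell genes.

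RefSeq (GRCm38.p6) places 162 V segments in the span, of which 102 are annotated as V segments and 60 as V pseudogenes, together with 5 J segments and Igkc. The last V segment before the J segments, Igkv3-1, ends at 70704177. The 22.6 kb from there to the end of Igkc are called the J, C and enhancer end, and the V array was cut at its midpoint, 69129906, into distal V and proximal V. The RefSeq promoter sequences used here covered 1 stretch that overlapped a member region, the promoter of the long non-coding RNA Gm46961 at chr6:70718827-70719126 on the minus strand, and it is shown because it lies in the J, C and enhancer end, where no region fell.

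Gm46961 promoter: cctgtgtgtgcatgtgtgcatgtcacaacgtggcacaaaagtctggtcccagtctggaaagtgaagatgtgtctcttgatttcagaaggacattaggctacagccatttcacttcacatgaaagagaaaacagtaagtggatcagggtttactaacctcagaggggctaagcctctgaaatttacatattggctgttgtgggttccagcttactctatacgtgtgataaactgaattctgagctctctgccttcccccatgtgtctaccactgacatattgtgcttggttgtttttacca

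The sequence was searched on both strands for the E box CAGGTG bound by E2A and the octamer ATGCAAAT of V promoters, and for core motifs of EBF1, NF-kB, ETS-IRF composite sites and CTCF. None was present, so the sequence carries no capitals. Of 32851 RefSeq promoters of the same length, 20.2% held the E box, 1.74% the octamer, 0.904% the EBF1 core, 0.155% the NF-kB site, 2.72% the ETS-IRF composite and 8.61% the CTCF core. Their absence says only that these letters are not in this window of 300 bases.

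Across the series the peak lists held 34202 to 39721 peaks in the dTAG-13 libraries and 40166 to 42139 in the DMSO libraries. Sequencing depth was not given, so precision can be judged only from the tables. The pro-B marker genes Cd79a, Pax5 and Vpreb1 had a peak in all 8 lists, while the myeloid genes Mpo and Elane and the T cell gene Cd3g had none. Other markers were not closed: 1 of 4 T cell genes (Cd3d), 1 of 4 myeloid genes (Itgam) and 1 of 3 erythroid genes (Klf1) had a peak in all 8 lists, and an ATAC-seq peak near a gene does not show that the gene is expressed. The F tests behind the deposited p-values had 11.2 denominator degrees of freedom in EBF1-dTAG_C and 110386 in EBF1-dTAG_N, so the p-values of EBF1-dTAG_N hardly rest on the spread between its own replicates at a region, and numbers of calls cannot be compared between the lines.

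After dTAG-13 the V array lost accessibility at many places along its whole length in both lines. None of the few regions of the J, C and enhancer end was called lower. In EBF1-dTAG_C, 49 of 213 member regions (23.0%) fell at an adjusted p under 0.05 (edgeR, Benjamini-Hochberg over the whole table), where 6.62% of all regions of the table fell. None of the 213 rose, where 0.308% of all regions rose. The median member that fell had a log2 fold change of -3.07, an 8.40-fold loss, and 48 of the 49 falls reached a log2 fold change of -1 or less, a size passed by 6.13% of all regions. The median log2 fold change over all members was -0.30, against 0.09 over the whole table.

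In EBF1-dTAG_N, 102 of 243 member regions (42.0%) fell, where 18.5% of all regions fell, and 20 (8.23%) rose, where 18.8% of all regions rose. The median fall was -2.43 on the log2 scale, a 5.40-fold loss, and 84 falls reached -1 or less, against 14.9% of all regions. The median over all members was -0.41, against 0.17 over the whole table. Since that table is shifted upwards by more than 0.1, the rises depend on the scaling: with folds centred on the table's median, 6 member regions rose and 108 fell, where 7.98% and 20.8% of all regions did. Centring EBF1-dTAG_C in the same way gave 0 rises and 52 falls, where 0.162% and 7.39% of all regions did. The members share a locus and are not replicates, so these shares are set beside the background with no test.

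The falls were spread over both parts of the V array. In distal V, 21 of 91 regions (23.1%) fell in EBF1-dTAG_C, as did 40 of 106 (37.7%) in EBF1-dTAG_N. In proximal V the falls were 28 of 119 (23.5%) for EBF1-dTAG_C and 62 of 132 (47.0%) for EBF1-dTAG_N. In the J, C and enhancer end, 0 of 3 regions fell for EBF1-dTAG_C and 0 of 5 for EBF1-dTAG_N. So few regions cannot show that this end differs from the V array. Counted in steps of 500 kb from the distal end, the fourth step held 13 falls among 32 regions in EBF1-dTAG_C and 25 among 39 in EBF1-dTAG_N, and the first step, which has few regions, 5 of 10 and 8 of 14 in those lines. The sixth step held 6 falls among 39 regions in EBF1-dTAG_C and 15 among 40 in EBF1-dTAG_N. The lowest shares were 2 of 17 (11.8%) in the seventh step for EBF1-dTAG_C and 15 of 44 (34.1%) in the third for EBF1-dTAG_N. These steps were named after their values were seen.

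**Figure D1:**
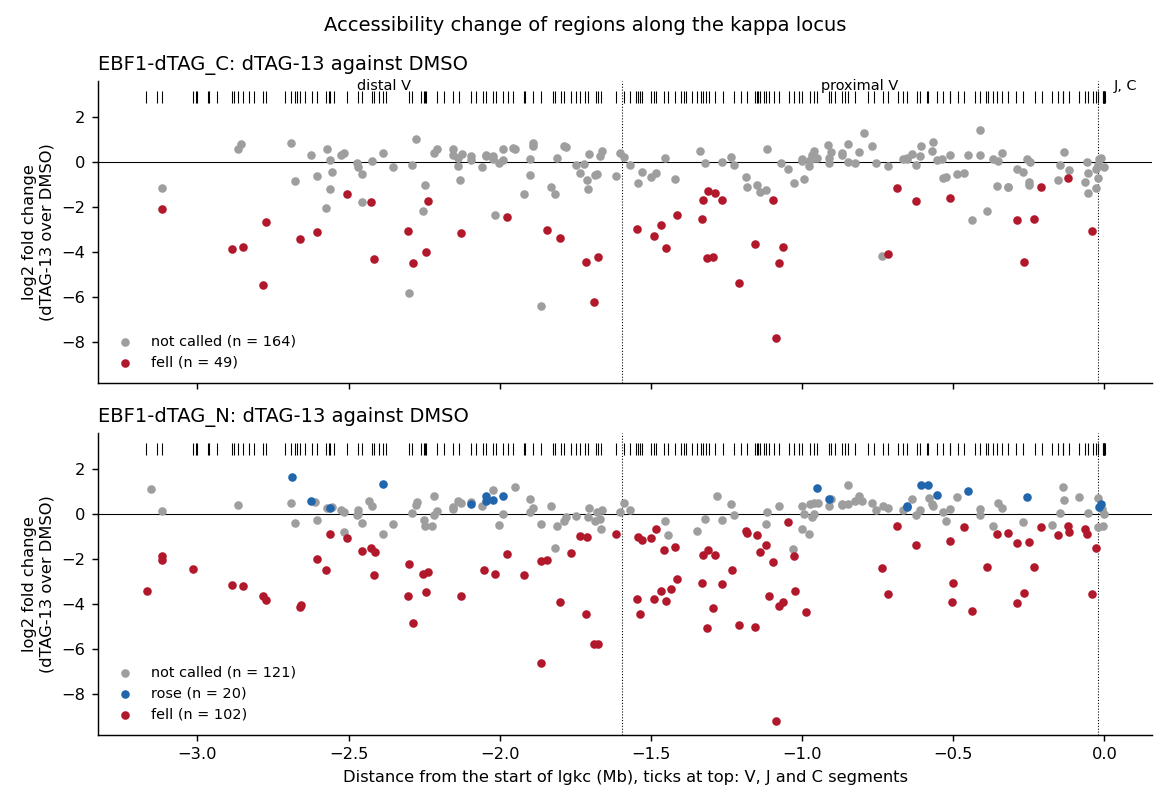
Log2 fold change (dTAG-13 over DMSO) of each kappa locus region against its distance from the start of Igkc in Mb, for EBF1-dTAG_C above and EBF1-dTAG_N below; ticks mark gene segments and dotted lines the section borders. Falls (49 in EBF1-dTAG_C and 102 in EBF1-dTAG_N) run along the whole V array. The J, C and enhancer end holds 3 regions in EBF1-dTAG_C and 5 in EBF1-dTAG_N, none of which fell, too few to show a border.

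In the J, C and enhancer end, the most abundant region of the whole locus showed no fall. It lay at chr6:70709224-70709985, 5047 bp beyond Igkv3-1 in the interval between V and J, with a mean abundance of 6.77 log2 CPM in EBF1-dTAG_C and 6.81 in EBF1-dTAG_N in the authors' deposited tables. Its peak summit fold enrichment, the authors' own value per peak over the local background of that library, was 22.4 and 23.2 with dTAG-13 and 25.3 and 22.4 with DMSO in EBF1-dTAG_C, and 25.1 and 23.8 with dTAG-13 and 22.6 and 26.7 with DMSO in EBF1-dTAG_N. The libraries of both treatments overlapped in both lines. The authors' deposited tables gave log2 fold changes of 0.13 in EBF1-dTAG_C (adjusted p = 0.674) and 0.31 in EBF1-dTAG_N (adjusted p = 0.000101).

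The region that covers part of the intron between Igkj5 and Igkc, where the intronic enhancer lies, also had a peak in all 8 lists. It lay at chr6:70725647-70726047, 388 bp before Igkc, and its summits reached 15.3 and 10.6 with dTAG-13 and 15 and 18.3 with DMSO in EBF1-dTAG_C. In EBF1-dTAG_N they reached 19.2 and 19.3 with dTAG-13 and 24.6 and 23.0 with DMSO. The treatments overlapped in EBF1-dTAG_C and did not in EBF1-dTAG_N, yet the log2 fold changes in the authors' deposited tables were -0.21 in EBF1-dTAG_C (adjusted p = 0.836) and 0.01 in EBF1-dTAG_N (adjusted p = 0.943).

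The other regions of that end were weaker. At chr6:70714366-70714632, in Gm46961, the authors' deposited tables listed 0.19 in EBF1-dTAG_C (adjusted p = 0.819) and 0.43 in EBF1-dTAG_N (adjusted p = 0.0256). Neither of the 2 rises of this end in EBF1-dTAG_N remained a call with centred folds. Over the Gm46961 promoter printed above, a region was listed in EBF1-dTAG_N only (chr6:70718810-70719046), and the authors' deposited table gave it 0.23 (adjusted p = 0.582). A last region of EBF1-dTAG_N, chr6:70720375-70720564, had a peak in 1 of 8 lists and -0.52 in the authors' deposited table (adjusted p = 0.228).

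In distal V, the most significant fall of EBF1-dTAG_C lay over the V pseudogene Igkv15-101, at chr6:68481099-68481551. Neither dTAG-13 library of EBF1-dTAG_C had a peak there, against summits of 28.1 and 26.8 in its DMSO libraries. In EBF1-dTAG_N the summits were 10.8 and 10.0 with dTAG-13 and 28.7 and 28.7 with DMSO. The authors' deposited tables gave log2 fold changes of -4.00 in EBF1-dTAG_C (adjusted p = 8.29e-06), a 16-fold loss, and -3.48 in EBF1-dTAG_N (adjusted p = 7.21e-87). This was the only one of the 3 Igkv15 segments with a region that fell in either line, and the region over Igkv15-103, of the same family, was not called. A region 940 bp from Igkv15-103, chr6:68438865-68439258, did fall, at -4.50 in EBF1-dTAG_C (adjusted p = 0.00149) and -4.83 in EBF1-dTAG_N (adjusted p = 1.15e-81) in the authors' deposited tables.

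A stretch between segments lost still more. At chr6:69036753-69037190, 5782 bp before Igkv4-79, no dTAG-13 library of either line had a peak, while the summits were 20.9 and 26.8 with DMSO in EBF1-dTAG_C and 28.8 and 27.8 with DMSO in EBF1-dTAG_N. The authors' deposited tables put it at -6.21 in EBF1-dTAG_C (adjusted p = 1.49e-05) and -5.75 in EBF1-dTAG_N (adjusted p = 9.92e-106), the smallest adjusted p of the locus in that line. Because the dTAG-13 libraries had no peak, the fitted fold change at such a region depends on how the count model treats very low counts.

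Some strong distal V regions fell in part only. At chr6:68884113-68884552, 18249 bp from the nearest segment, the summits were 5.15 and 6.30 with dTAG-13 and 25.6 and 24.0 with DMSO in EBF1-dTAG_C, and 11.0 and 10.8 with dTAG-13 and 21.4 and 24.8 with DMSO in EBF1-dTAG_N. Every dTAG-13 library was below every DMSO library of its line. The authors' deposited tables gave -3.03 in EBF1-dTAG_C (adjusted p = 0.000105) and -2.03 in EBF1-dTAG_N (adjusted p = 4.51e-33). Of all 197 pairs this region had the smallest p for a difference between the lines: the log2 fold change in EBF1-dTAG_N minus that in EBF1-dTAG_C was 1.00, a smaller loss in EBF1-dTAG_N (approximate 95% interval 0.32 to 1.69), which did not pass adjustment over all pairs of the genome (adjusted p = 0.358, approximate z test). At chr6:68750479-68750895, near Igkv4-92, the authors' deposited tables gave -2.42 in EBF1-dTAG_C (adjusted p = 0.000352) and -1.79 in EBF1-dTAG_N (adjusted p = 7.98e-28), again with a peak in all 8 lists.

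**Figure D2:**
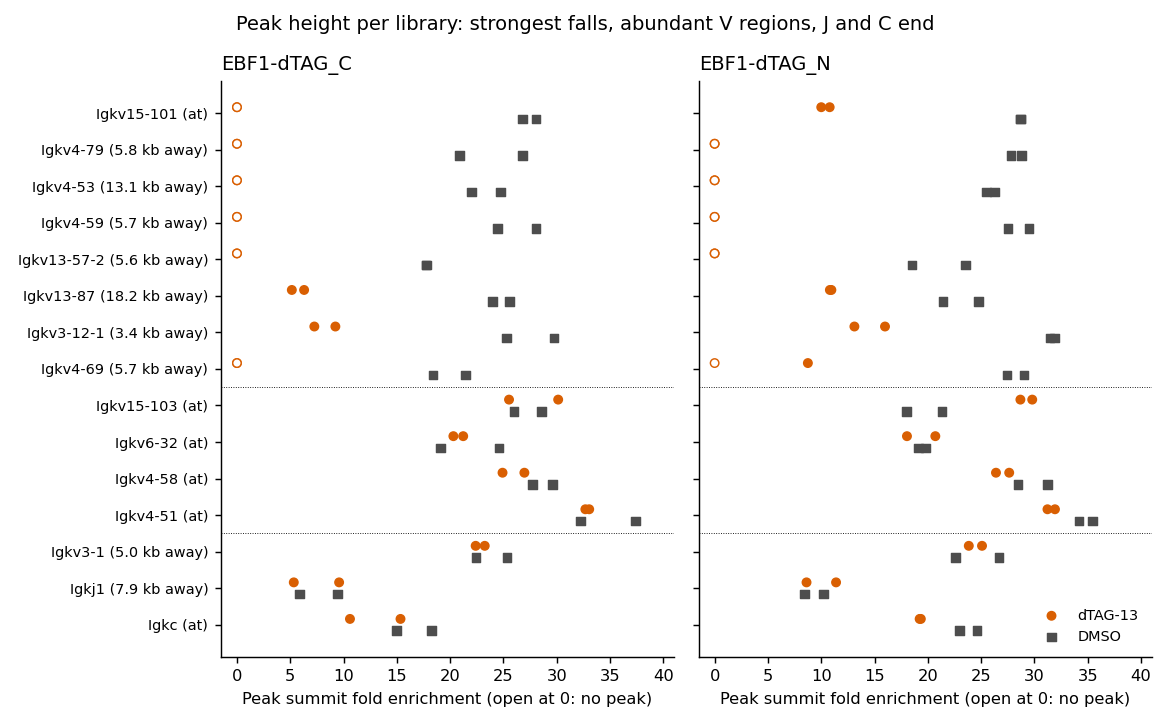
Summit fold enrichment (authors' value per peak, over local background) in each library for the 8 falls of EBF1-dTAG_C with the lowest adjusted p (top), 4 abundant V regions with no call in that line (middle) and its 3 regions of the J, C and enhancer end (bottom), named by the nearest segment; orange circles are dTAG-13, grey squares DMSO, open symbols at 0 mean no peak. In the top block every dTAG-13 library stood below the DMSO libraries of its line, and in the lower blocks every dTAG-13 library had a peak.

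In proximal V, the region at chr6:69662434-69662834, 13080 bp from Igkv4-53, had no peak in the dTAG-13 libraries of either line, against summits of 24.7 and 22 with DMSO in EBF1-dTAG_C and 26.3 and 25.5 with DMSO in EBF1-dTAG_N. Its log2 fold changes in the authors' deposited tables were -3.79 in EBF1-dTAG_C (adjusted p = 1.69e-05) and -3.90 in EBF1-dTAG_N (adjusted p = 6.32e-71). Likewise no dTAG-13 library had a peak at chr6:69517740-69518103, near the pseudogene Igkv13-57-2, where the DMSO summits of EBF1-dTAG_C were 17.8 and 17.8, and those of EBF1-dTAG_N 23.5 and 18.5. The authors' deposited tables gave that region -5.36 in EBF1-dTAG_C (adjusted p = 8.07e-05) and -4.94 in EBF1-dTAG_N (adjusted p = 1.01e-54).

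Nearer to the J segments, the region at chr6:70493888-70494298 by Igkv3-12-1 kept a peak in all 8 lists. Its summits were 7.26 and 9.23 with dTAG-13 and 25.3 and 29.7 with DMSO in EBF1-dTAG_C, and 13.1 and 16 with dTAG-13 and 31.9 and 31.4 with DMSO in EBF1-dTAG_N. The treatments did not overlap in either line, and the authors' deposited tables gave -2.54 in EBF1-dTAG_C (adjusted p = 0.000161) and -2.36 in EBF1-dTAG_N (adjusted p = 2.82e-41). The lowest fitted value of the whole locus, picked out after the values were seen, lay at chr6:69640756-69641044 near Igkv4-53, with -7.80 in EBF1-dTAG_C (adjusted p = 0.0201) and -9.21 in EBF1-dTAG_N (adjusted p = 3.72e-25) in the authors' deposited tables. That region was of low abundance, with a peak in 1 of the DMSO libraries of EBF1-dTAG_C and in both of EBF1-dTAG_N, so its size is poorly fixed.

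A repeated arrangement ran through the middle of the array, where Igkv4 segments alternate with Igkv13 segments, most of them pseudogenes. Regions between 6 and 7 kb to the distal side of an Igkv4 segment all fell: 10 of 10 in EBF1-dTAG_C, at 6076 to 6916 bp from the segment's midpoint and with a median log2 fold change of -4.01, a 16.2-fold loss, and 12 of 12 in EBF1-dTAG_N, with a median of -4.02. The same holds for regions 1 to 2 kb to the J and C side of an Igkv13 segment, 7 of 7 in EBF1-dTAG_C with a median of -3.64 and 9 of 9 in EBF1-dTAG_N with a median of -4.44. The sets overlap: 6 regions in EBF1-dTAG_C and 7 in EBF1-dTAG_N met both descriptions, since an Igkv13 segment often precedes an Igkv4 segment at that spacing. Together they made up 11 of the 49 falls in EBF1-dTAG_C and 14 of the 102 in EBF1-dTAG_N.

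Of the 11 regions at these spacings in EBF1-dTAG_C, 10 had no peak in either dTAG-13 library and 11 had a peak in both DMSO libraries. In EBF1-dTAG_N 10 of the 14 lacked a dTAG-13 peak and 13 had both DMSO peaks. One of them, chr6:69432156-69432556 before Igkv4-59, had no dTAG-13 peak in either line, against DMSO summits of 28.1 and 24.5 for EBF1-dTAG_C and 29.5 and 27.5 for EBF1-dTAG_N, with -4.23 (adjusted p = 2.20e-05) in the authors' deposited table of EBF1-dTAG_C. Another, chr6:69010460-69010955 by Igkv13-80-1, stood at -4.44 in the authors' deposited tables of both lines (adjusted p = 0.000201 in EBF1-dTAG_C and 4.80e-46 in EBF1-dTAG_N).

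Some other spots of the same repeats behaved differently, but falls were not confined to the named spacings. A region 4.6 kb to the distal side of Igkv4-92 fell (-2.42 in EBF1-dTAG_C and -1.79 in EBF1-dTAG_N). So did a region 9.17 kb to the J and C side of Igkv4-68 (-2.35 in EBF1-dTAG_C and -2.89 in EBF1-dTAG_N). Regions 3 to 5 kb to the J and C side of an Igkv4 segment had 0 falls among 6 in each line, with medians of 0.28 in EBF1-dTAG_C and 0.10 in EBF1-dTAG_N. Regions within 500 bp of an Igkv4 segment fell less far, with 6 of 27 called and a median of -0.94 in EBF1-dTAG_C and 23 of 34 called and a median of -1.02 in EBF1-dTAG_N. In the V array, away from segments and outside these spacings, 16 of 86 regions fell for EBF1-dTAG_C and 33 of 96 for EBF1-dTAG_N. The spacings were chosen after the values were seen and carry no test. Repeated units of this kind can be near-identical in sequence, so reads may have been shared or split between copies, and these regions are not independent observations.

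**Figure D3:**
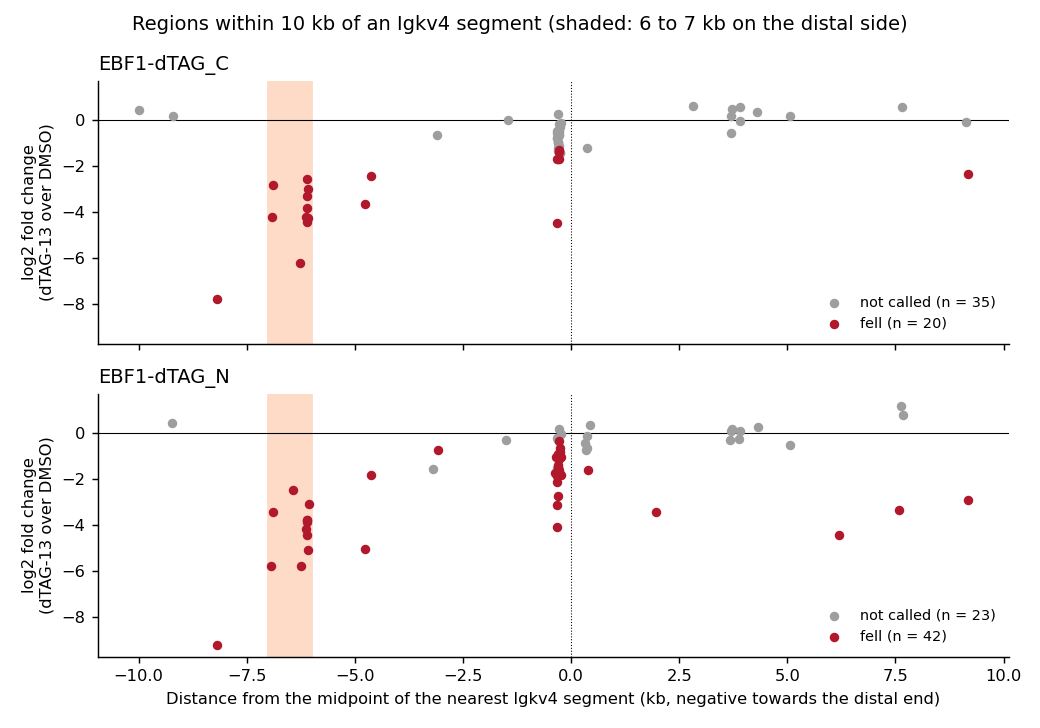
Log2 fold change (dTAG-13 over DMSO) of regions within 10 kb of an Igkv4 segment against the distance from the midpoint of the nearest one in kb, negative towards the distal end; 55 regions in EBF1-dTAG_C above, 65 in EBF1-dTAG_N below. In the shaded band from 6 to 7 kb on the distal side every region fell, while those 3 to 5 kb on the other side lay near 0. Regions at other distances fell as well.

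Gene segments themselves differed by family. Of the 162 V segments, 90 had a region within 500 bp in EBF1-dTAG_C, and 102 had one in EBF1-dTAG_N. Such a region lay at a larger share of the annotated V segments than of the pseudogenes, 77 of 102 against 13 of 60 in EBF1-dTAG_C and 84 of 102 against 18 of 60 in EBF1-dTAG_N. Of these V segments, 22 fell in EBF1-dTAG_C, and all 22 also fell in EBF1-dTAG_N, where 52 fell, 10 rose and 1 had a region in each direction. Members of a family resemble each other in sequence, so values of single segments are uncertain where reads could not be placed uniquely, and the table of segments used here gives no strand, so the promoter end of a segment could not be told.

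In the families Igkv1, Igkv9 and Igkv2, most segments with a region fell in both lines, where 22 of all 90 V segments with a region in both lines did. Of the 6 Igkv1 segments with a region, 4 fell in EBF1-dTAG_C and 6 in EBF1-dTAG_N, among them Igkv1-117 at -3.11 and -2.01 and Igkv1-35 at -4.09 and -3.54 in those lines in the authors' deposited tables. At both segments a second region at the other end kept its peaks: at Igkv1-35 the regions at the lower-coordinate end stood at -0.15 in EBF1-dTAG_C (adjusted p = 0.912) and 0.29 in EBF1-dTAG_N (adjusted p = 0.341) in the authors' deposited tables. Of the 4 Igkv9 segments with a region, 3 fell in both lines. Igkv9-129 had no peak with dTAG-13 and summits of 20.6 and 22.1 with DMSO in EBF1-dTAG_C, and the authors' deposited tables gave -3.88 in that line (adjusted p = 0.000204) and -3.13 in EBF1-dTAG_N (adjusted p = 2.09e-19). Igkv9-120 was the exception, with -0.85 in EBF1-dTAG_C (adjusted p = 0.432) and -0.41 in EBF1-dTAG_N (adjusted p = 0.314) in the authors' deposited tables. Of the 3 Igkv2 segments with a region, 2 fell in EBF1-dTAG_C and 3 in EBF1-dTAG_N.

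The largest family, Igkv4, had 6 falls among 26 segments with a region in EBF1-dTAG_C and 23 among 30 in EBF1-dTAG_N. Most of its losses were modest: Igkv4-59 stood at -1.38 in EBF1-dTAG_C (adjusted p = 0.0201) and -1.82 in EBF1-dTAG_N (adjusted p = 2.38e-12), and Igkv4-53 was the strongest at -4.49 in EBF1-dTAG_C and -4.06 in EBF1-dTAG_N, all from the authors' deposited tables. In Igkv3, the family next to the J segments, 3 of 8 segments fell for EBF1-dTAG_C and 6 of 12 for EBF1-dTAG_N. The Igkv6 counts were 1 of 8 for EBF1-dTAG_C and 6 of 8 for EBF1-dTAG_N.

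Several families had no fall in either line, among them Igkv8 with 7 segments with a region in EBF1-dTAG_C and 8 in EBF1-dTAG_N, Igkv12 with 7 in each, Igkv5 with 4 in each and Igkv10 with 3 in each. In Igkv10, 3 of 3 segments rose in EBF1-dTAG_N, of which 1 was called with centred folds, and 0 of 3 rose in EBF1-dTAG_C. Igkv10-95 had summits of 21.8 and 19.2 with dTAG-13 and 19.2 and 19.0 with DMSO in EBF1-dTAG_N, and the authors' deposited tables gave it 0.57 in EBF1-dTAG_N (adjusted p = 0.00225) and 0.32 in EBF1-dTAG_C (adjusted p = 0.552). The difference between the lines at this region was 0.24 (approximate 95% interval -0.30 to 0.78, adjusted p = 0.953, approximate z test). None of the 19 Igkv13 segments, 17 of them pseudogenes, had a region within 500 bp in either line. Families were compared after their values were seen and without a test.

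Among regions that fell, those between segments had the larger median loss, while over all regions the medians ran the other way. Over all regions, the median log2 fold change was -0.50 at segments and -0.06 away from them in EBF1-dTAG_C, and -0.48 at segments and -0.29 away from them in EBF1-dTAG_N. At a segment, 22 of 114 regions fell in EBF1-dTAG_C, with a median fall of -2.36, and 55 of 129 in EBF1-dTAG_N, with a median fall of -1.61. Farther than 500 bp from any segment, 27 of 99 fell in EBF1-dTAG_C with a median fall of -3.29, and 47 of 114 in EBF1-dTAG_N with a median fall of -3.63. Beyond 5000 bp the median falls were -3.79 in EBF1-dTAG_C (11 of 44 regions) and -3.75 in EBF1-dTAG_N (18 of 53).

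Among the most abundant V regions, several showed small fold changes. Igkv15-103 had summits of 25.5 and 30.1 with dTAG-13 and 28.6 and 26.0 with DMSO in EBF1-dTAG_C, and 29.8 and 28.7 with dTAG-13 and 18 and 21.3 with DMSO in EBF1-dTAG_N. The treatments overlapped in EBF1-dTAG_C, while in EBF1-dTAG_N the dTAG-13 summits lay above the DMSO summits. Yet the log2 fold changes of this region in the authors' deposited tables were -0.13 in EBF1-dTAG_C (adjusted p = 0.801) and 0.06 in EBF1-dTAG_N (adjusted p = 0.718). Igkv4-58 stood at -0.13 in EBF1-dTAG_C (adjusted p = 0.766) and -0.04 in EBF1-dTAG_N (adjusted p = 0.807) in the authors' deposited tables. Igkv4-51, which had the highest summits of the locus (33.0 and 32.7 with dTAG-13, and 37.4 and 32.2 with DMSO, in EBF1-dTAG_C), stood at -0.30 there (adjusted p = 0.348) and at -0.34 in EBF1-dTAG_N (adjusted p = 0.00738) in the authors' deposited tables.

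Abundant regions with small losses were also called. Igkv3-7 had -0.70 in EBF1-dTAG_C (adjusted p = 0.0496) and -0.53 in EBF1-dTAG_N (adjusted p = 2.22e-07), and the region at chr6:70040829-70041314 near Igkv8-34 had -1.16 in EBF1-dTAG_C (adjusted p = 0.00945) and -0.53 in EBF1-dTAG_N (adjusted p = 4.47e-09), as listed in the authors' deposited tables. Of the 20 most abundant regions, 6 (30%) fell and 0 rose in EBF1-dTAG_C, where 23% of all members and 6.62% of all regions fell. In EBF1-dTAG_N, 10 (50%) fell, where 42% of all members and 18.5% of all regions fell. In the same line 5 (25%) rose, where 8.23% of all members and 18.8% of all regions rose, and 0 rose with centred folds.

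The rises in EBF1-dTAG_N were small, with a median of 0.72 on the log2 scale, and 13 of 20 lay at segments (65%), where 53.1% of all member regions of that line lay. The region with the smallest adjusted p among V regions that rose lay over Igkv8-27, with summits of 14.9 and 17.8 with dTAG-13 and 16.4 and 11.7 with DMSO, so the treatments overlapped. It had 0.85 in EBF1-dTAG_N (adjusted p = 0.000468) and 0.11 in EBF1-dTAG_C (adjusted p = 0.897) in the authors' deposited tables. Of the 18 rising regions with a partner in EBF1-dTAG_C, 17 were positive there and none was called, with a lowest adjusted p of 0.544.

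The peak lists, which give a value for each library, also held fewer kappa peaks after dTAG-13. In EBF1-dTAG_C, 115 and 109 peaks had their summit in the locus with dTAG-13 (112 ± 4.24, SD, n = 2), against 171 and 175 with DMSO (173 ± 2.83, SD, n = 2), a difference of -35.3%. In EBF1-dTAG_N there were 137 and 145 with dTAG-13 (141 ± 5.66, SD, n = 2), against 196 and 189 with DMSO (192.5 ± 4.95, SD, n = 2), a difference of -26.8%. Every dTAG-13 library was below every DMSO library. The exact two-sided permutation test gave p = 0.333 in each line, the smallest p that 2 against 2 libraries allow. With labels permuted within each line, the exact test over all 8 libraries gave p = 0.0556, also the smallest possible, so the design could not reach 0.05. As the dTAG-13 lists were shorter in all, the locus is also given as a share of all peaks: 0.334% and 0.319% with dTAG-13 against 0.423% and 0.415% with DMSO in EBF1-dTAG_C, and 0.382% and 0.365% with dTAG-13 against 0.471% and 0.471% with DMSO in EBF1-dTAG_N.

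By section, distal V had 46 and 39 peaks with dTAG-13 and 71 and 72 with DMSO in EBF1-dTAG_C, and 57 and 62 with dTAG-13 and 84 and 79 with DMSO in EBF1-dTAG_N. Proximal V had 66 and 67 with dTAG-13 and 97 and 100 with DMSO in EBF1-dTAG_C, and 76 and 80 with dTAG-13 and 108 and 105 with DMSO in EBF1-dTAG_N. The J, C and enhancer end had 3 peaks in each of the 4 EBF1-dTAG_C libraries, and 4 and 3 with dTAG-13 and 4 and 5 with DMSO in EBF1-dTAG_N.

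A peak in both DMSO lists of a line and in none of its dTAG-13 lists marked 45 of 213 regions in EBF1-dTAG_C, where 8.46% of all regions had this pattern, and 53 of 243 in EBF1-dTAG_N, where 10.3% did. All of these had a negative log2 fold change, and 34 of the 45 and 49 of the 53 were called. The folds come from the same libraries as the lists, so the common sign follows from the pattern and is no separate evidence. The opposite pattern, with peaks in both dTAG-13 lists alone, marked 2 of 213 regions in EBF1-dTAG_C, where 1.38% of all regions of the table had it. In EBF1-dTAG_N it marked 8 of 243, where 3.53% of all regions had it, so these counts are near the background. Not every fall removed a peak: 36 of the 49 falls of EBF1-dTAG_C and 58 of the 102 of EBF1-dTAG_N lacked any dTAG-13 peak.

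**Figure D4:**
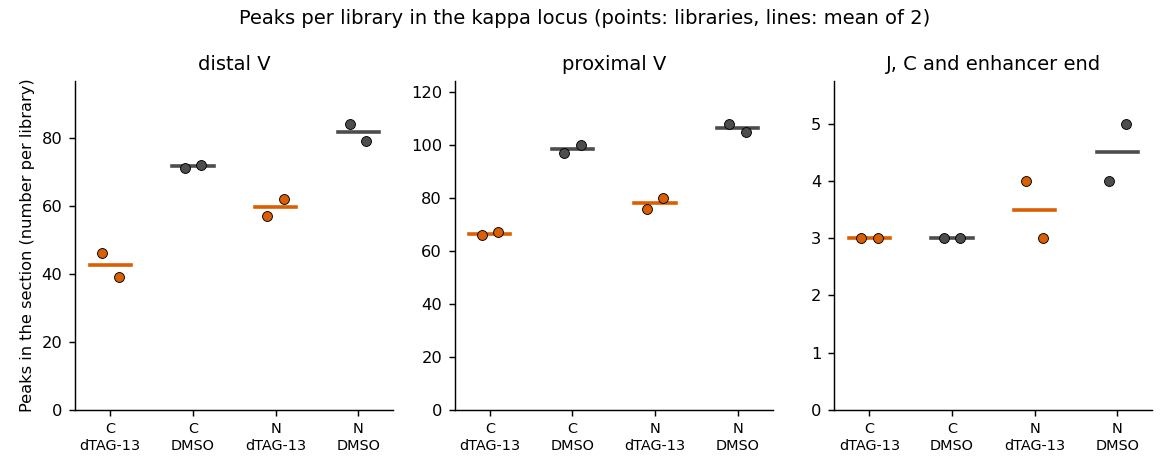
Number of peaks per library with their summit in distal V, proximal V and the J, C and enhancer end, for each line and treatment; points are libraries and lines the mean of 2. In distal and proximal V of each line the dTAG-13 points sat under the DMSO points, and the J, C and enhancer end held 3 to 5 peaks in every library.

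The fold changes of the lines ran in parallel. Across the 197 region pairs, the log2 fold changes of the lines correlated with Pearson's r = 0.91 and Spearman's rho = 0.86, as a description over regions that share libraries and a locus, against 0.84 and 0.65 over 43350 pairs of the genome. All 49 regions that fell in EBF1-dTAG_C also fell in EBF1-dTAG_N, which is 57.0% of the 86 pairs that fell in EBF1-dTAG_N. Over the pairs of the genome those shares were 98.8% and 47%, and 7.97% of all pairs fell in both. A further 37 pairs fell in EBF1-dTAG_N only, with a median of -1.13 there, and all 37 were negative in EBF1-dTAG_C with adjusted p-values of 0.0564 or more. Called in neither line were 93 pairs.

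A direct test of the difference between the lines called 0 of 197 pairs (approximate z test on the deposited folds and F values, Benjamini-Hochberg over the genome's pairs, where 0.201% were called). At an unadjusted p under 0.05 there were 13, and the lowest adjusted p was 0.358. The median absolute difference was 0.40 on the log2 scale and the median half-width of the approximate 95% interval was 1.06, so smaller differences were not detectable at this precision.

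**Figure D5:**
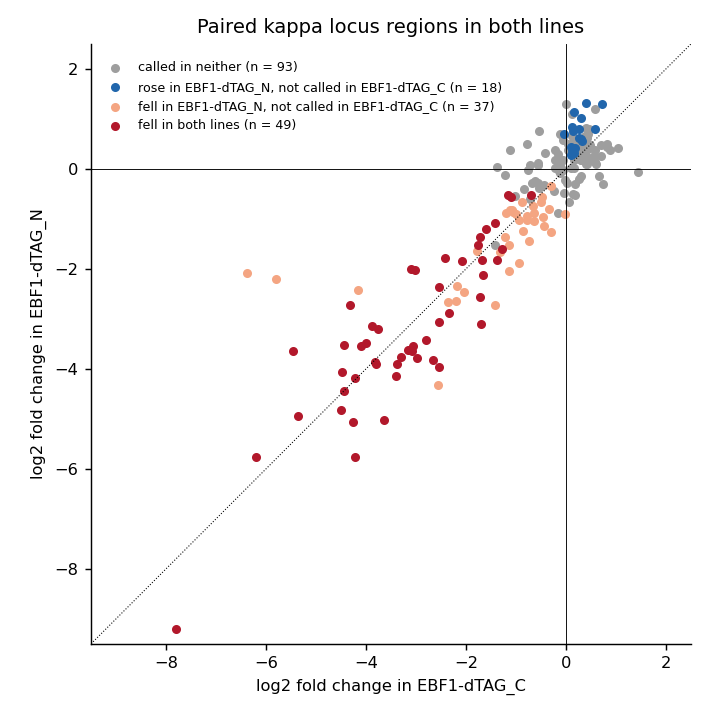
Log2 fold change (dTAG-13 over DMSO) in EBF1-dTAG_N against that in EBF1-dTAG_C for the 197 kappa locus region pairs, coloured by call; the dotted line marks equal values. The 49 pairs that fell in both lines lie along it, and the 37 that fell in EBF1-dTAG_N only are all negative in EBF1-dTAG_C as well.

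At the borders of the span, the nearest regions outside are set beside their neighbours inside. At the distal end, the region over Igkv2-137 (chr6:67555372-67555684) has its centre just outside, and the authors' deposited tables gave it -2.61 in EBF1-dTAG_C (adjusted p = 0.0117) and -3.23 in EBF1-dTAG_N (adjusted p = 2.24e-27). The first region inside, chr6:67558822-67559184, was listed in EBF1-dTAG_N only, at -3.39 in the authors' deposited table (adjusted p = 3.58e-12). At the other end the last region inside is the one before Igkc described above, and the next one outside is at chr6:70735473-70735925, 8719 bp past Igkc, where the 3′ enhancer lies. Its summits were 28.6 and 26.4 with dTAG-13 and 27.9 and 31.0 with DMSO in EBF1-dTAG_C. The authors' deposited tables gave 0.18 in that line (adjusted p = 0.845) and 0.43 in EBF1-dTAG_N (adjusted p = 0.000117). Calls with centred folds were listed only inside the span, so this rise in EBF1-dTAG_N was not checked in that way.

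Farther out, a region at chr6:70749703-70750087, 22949 bp past Igkc, fell in both lines. It had no dTAG-13 peak in either line, against summits of 8.57 and 7.31 with DMSO in EBF1-dTAG_C and 15.2 and 15.5 with DMSO in EBF1-dTAG_N, and the authors' deposited tables gave -3.85 in EBF1-dTAG_C (adjusted p = 0.00126) and -2.88 in EBF1-dTAG_N (adjusted p = 2.07e-32). Of the regions up to 100 kb past Igkc, 1 of 13 (7.69%) fell for EBF1-dTAG_C, where 6.62% of all regions fell. For EBF1-dTAG_N 3 of 17 (17.6%) fell and 2 (11.8%) rose, where 18.5% and 18.8% of all regions did. These shares of falls are near those of the whole tables.

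The other immunoglobulin loci are given for comparison, without a test. In the heavy chain locus, Igh, 17 of 173 regions (9.83%) fell for EBF1-dTAG_C, beside 6.62% of all its regions. For EBF1-dTAG_N 35 of 191 (18.3%) fell and 29 (15.2%) rose, beside 18.5% and 18.8% of all its regions. In the lambda locus, Igl, 1 of 15 (6.67%) fell for EBF1-dTAG_C. For EBF1-dTAG_N 4 of 14 (28.6%) fell and 4 (28.6%) rose. Genes for factors that act on the kappa locus or its recombination were also looked at, each with regions within 20 kb. Of 22 such genes, 8 had a region that fell and 0 one that rose in EBF1-dTAG_C. The same counts were 17 and 15 in EBF1-dTAG_N. Of the regions of these genes, 15 of 167 (8.98%) fell in EBF1-dTAG_C, beside 6.62% of its whole table, and 45 of 190 (23.7%) fell and 43 (22.6%) rose in EBF1-dTAG_N, beside 18.5% and 18.8%. Tcf3, which encodes E2A, had 2 falls among 5 regions in EBF1-dTAG_C, and Pax5, which encodes a B lineage factor downstream of EBF1, 2 among 14. In EBF1-dTAG_N, Tcf3 had 4 falls and 0 rises among 7 regions, and Pax5 5 falls and 3 rises among 22. The Rag1 and Rag2 genes, which encode the recombinase, had 2 falls among 3 regions and 1 among 3 in that line. In EBF1-dTAG_C they had 0 falls, among only 2 regions and 1. Other genes had more rises than falls in EBF1-dTAG_N. Ikzf1 had 8 rises and 2 falls among 19 regions, and Ebf1 6 rises and 3 falls among 26.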

How the data were processed

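Libraries of 50000 cells were made with Tn5 per the labels' protocols. Per the submitters' processing notes, the tools were edgeR 3.32.0, MACS2 2.2.7.1, Bowtie2 2.3.5.1, deepTools 3.3.2 and SAMtools 1.10, on GRCm38. How reads were filtered, libraries scaled and reads that match several V segments treated was not stated in those notes or in the headers; such reads can blur values between similar segments.

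Per the file headers, the deposited tables hold for each peak region a log2 fold change, a mean abundance in log2 CPM, an F statistic (a score), a p-value and an adjusted p-value, with no values per library, so no refit was possible. The deposited peak lists, 1 per library, give a score, a fold enrichment (a ratio), and −log10 p- and q-values. The direction of the folds is not stated; all 45 regions with peaks in DMSO lists only were negative in EBF1-dTAG_C and all 53 in EBF1-dTAG_N, so positive means more accessible after dTAG-13.

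Repeated entries (8 and 12) were dropped, starts were turned to 1-based, and regions were set against RefSeq segments with a window of 500 bp. A call is a deposited adjusted p under 0.05, and recomputed adjustments matched the deposited ones. Standard errors for the difference between the lines were taken as the absolute log2 fold change over the square root of F, and folds were also centred on each table's median. Numbers of peaks were compared by exact permutation tests. The z test is approximate: it uses normal quantiles, although the F tests of EBF1-dTAG_C had only 11.2 denominator degrees of freedom. Python 3.11.15, numpy 2.4.6, scipy 1.17.1 and pandas 2.3.3 were used.

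Named regions were every region of the J, C and enhancer end, up to 15 called V regions per line by smallest adjusted p, the 5 most abundant per section and the regions within 100 kb of either end; segments of a family, the lowest fold and the spacings were picked after their values were seen. Members and lists were chosen with earlier results of these data known.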

Additional observations from a re-analysis of the deposited data

How the results depend on the processing

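Of the alternatives, those that moved a value are given here and the others kept it. At an adjusted p under 0.01, 30 regions fell in EBF1-dTAG_C and 8 rose in EBF1-dTAG_N. The rises in EBF1-dTAG_N numbered 6 at sizes of 1 or more on the log2 scale, 6 with centred folds and 11 with the degrees of freedom of EBF1-dTAG_C. With the V array cut at 2/3 of its length, 29.9% of distal and 13.3% of proximal V regions fell in EBF1-dTAG_C, while EBF1-dTAG_N had 47.7% distal and 34.5% proximal. Cut at 1/3, EBF1-dTAG_C had 30.6% distal and 21.1% proximal, while EBF1-dTAG_N had 40.3% distal and 43.8% proximal, so how the V parts compare depends in both lines on where the array is cut. Leaving out 1 library at a time, the difference in peaks (dTAG-13 minus DMSO) ran from -64 to -58 in EBF1-dTAG_C, -55.5 to -47.5 in EBF1-dTAG_N and -58.25 to -54.25 over both. From lists of equal length the differences were -42.5, -34.5 and -40.5.

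With the replicate number as a block, the differences in peaks stayed at -61 (exact p = 0.5), -51.5 (exact p = 0.5) and -56.25 (exact p = 0.125). The numbers pair nothing in the labels: deviations of same-numbered libraries correlated at -0.201 in EBF1-dTAG_C, and at -0.00394 in EBF1-dTAG_N. Crossing the numbers in EBF1-dTAG_C, chosen after seeing the data, left -61 (exact p = 0.5). Names inside some EBF1-dTAG_C peak lists carry replicate numbers that differ from the labels; the labels were used.

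Limits: depth is unknown, tables hold no values per library, 2 libraries a group cannot reach p = 0.05 in an exact test, and motifs in the regions were not searched because no genome was used here.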
